A study of Caenorhabditis elegans with 4 samples.

Results

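The CYP-35 genes are a subfamily of *Caenorhabditis elegans* cytochrome P450 genes, and 10 of the 46643 genes in the count table carry a cyp-35A, cyp-35B, cyp-35C or cyp-35D symbol of a protein-coding gene (cyp-35A1 to cyp-35A5, cyp-35B1 to cyp-35B3, cyp-35C1 and cyp-35D1). They were picked by symbol, and the subfamily itself was chosen because several of its genes were far higher in ketamine-treated animals. The comparison of ketamine with control is therefore a description of these genes, given with its error. Where a member is said to be called or not, this is its outcome in a fit over all genes, and it is no independent evidence for a gene chosen on the same contrast. RNA was measured in 2 libraries from ketamine-treated animals (2.5 mM ketamine in the plates) and 2 libraries from control animals (M9 buffer as vehicle). All 4 came from whole wild-type N2 animals grown from synchronised L1 larvae to adult day 1 on OP50 bacteria, so each library is a pool of animals and no tissue was separated. The paper reports slower and uneven development under ketamine, with larvae still present when all control animals were egg-laying adults. That scoring was at a fixed time after the L1 stage, whereas RNA was taken at adult day 1. Whether the RNA pools held larvae is not stated.

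Cytochrome P450 enzymes are heme proteins of the endoplasmic reticulum that add an oxygen atom to fats, steroids and foreign compounds, drawing electrons from the reductase EMB-8. This oxidation is the usual opening step in clearing a drug. In *C. elegans* the CYP-35 genes are known as intestinal genes that are switched on by many foreign chemicals, and some of the CYP-35A genes have been linked to fat storage. CYP-35D1 is known to oxidise the anthelmintic thiabendazole, and cyp-35B1 is a known target of the insulin-pathway transcription factor DAF-16. In mammals ketamine is cleared by P450 enzymes of the liver.

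All 10 genes lie on chromosome V of the WBcel235 build. cyp-35A5 (K07C6.5, 3936374 to 3938496), cyp-35B1 (K07C6.4, 3939127 to 3941235), cyp-35B2 (K07C6.3, 3942215 to 3944519) and cyp-35B3 (K07C6.2, 3945353 to 3947044) form a head-to-tail run of 10.7 kb on the plus strand, separated by 630, 979 and 833 bases. cyp-35A3 (K09D9.2, 4022619 to 4024473) follows 75.6 kb further on, and cyp-35A4 (C49G7.8, 4031627 to 4033387) another 7.15 kb after it, both also on the plus strand. cyp-35A1 (C03G6.14, 7359997 to 7361773) and cyp-35A2 (C03G6.15, 7362316 to 7364204) are neighbours on the minus strand, 542 bases apart. cyp-35C1 (C06B3.3, 13896657 to 13898488, minus strand) and cyp-35D1 (F14H3.10, 16069238 to 16071259, plus strand) are single genes.

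The exon structure was shared across the subfamily. In the Ensembl annotation of WBcel235 the opening 3 coding exons were 180, 145 and 133 bases long in each of the 10 genes. Of the 64 other P450 genes (symbols starting cyp-) with annotated coding exons, 0 had these 3 lengths in any transcript. The 5 CYP-35A genes then continued identically with coding exons of 303, 111, 487 and 123 bases. The 3 CYP-35B genes had instead a single exon of 910 bases followed by 129 bases. In cyp-35D1 exons of 423 and 487 bases, which sum to the same 910 bases, preceded the last 129 bases. In cyp-35C1 exons of 121 and 293 bases summed to 414 bases, as did the 303 and 111 bases of the CYP-35A genes, and were followed by exons of 487 and 126 bases. Coding lengths without the stop codon were 1482 bases for CYP-35A, 1485 for cyp-35C1 and 1497 for CYP-35B and cyp-35D1. Related genes can share reads, but exon lengths do not show how alike the sequences are, and sequences were not compared. Neither the treatment of reads that match several genes nor the strand setting of the counting is given in the sources used here, so the split of counts between members is uncertain.

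The counts of a library summed to between 29192110 and 43419202. Ketamine and control were compared with edgeR's quasi-likelihood test over 15793 genes, those that reached 10 counts in 2 or more libraries. A gene was called when its adjusted p (Benjamini-Hochberg) was below 0.05 and its change was 2-fold or more, and 15 genes were called higher under ketamine (0.095% of those tested) and 0 lower (0%). At an unadjusted p under 0.05 and 2-fold 323 were higher and 258 lower. With DESeq2 in its place 109 genes were called higher (0.69%) and 23 lower (0.146%). Levels are given in CPM, counts scaled to library size with the TMM factors of edgeR, and between genes in FPKM, which also allows for gene length. In log2 CPM across genes, control 1 correlated less with the other libraries (Pearson's r between 0.949 and 0.962) than the other 3 did among themselves (0.978 to 0.988). Values without control 1 are therefore given for each member below, although genes are not independent replicates and these correlations only describe the libraries.

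Of the 10 CYP-35 genes, edgeR called 4 higher, cyp-35A1, cyp-35B1, cyp-35B2 and cyp-35B3, where 0.095% of all tested genes were called so. None was called lower (0 of 10), where 0% of all tested genes were. At an unadjusted p under 0.05 and 2-fold 1 was lower (cyp-35D1), beside 258 of all 15793 tested genes. DESeq2 called 0 of the 10 lower, where it called 0.146% of all tested genes lower. All 10 passed the count filter, but cyp-35A1, cyp-35B2 and cyp-35B3 passed it only through the ketamine libraries. In 6 of the 10 both ketamine libraries lay above both controls in CPM, where 23.1% of all tested genes did. In 1 of the 10 both lay below, where 20.6% of all tested genes did. Since the subfamily was chosen on this contrast, these shares are printed side by side and nothing is read from them.

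**Figure D1:**
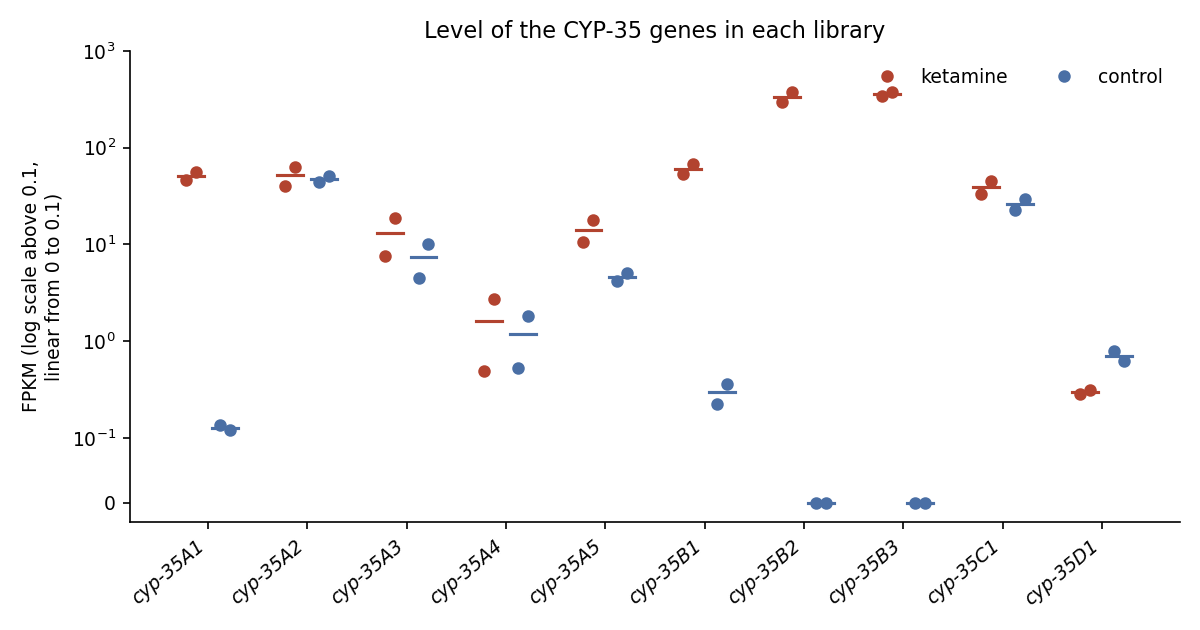
Level of each CYP-35 gene in FPKM (vertical axis, logarithmic above 0.1 and linear from 0 to 0.1) in the 2 ketamine libraries (red, left) and the 2 control libraries (blue, right). Points are libraries and bars are group means. cyp-35B2 and cyp-35B3 were at 0 in both controls and between 299 and 374 FPKM in the ketamine libraries, while cyp-35A2, cyp-35A3 and cyp-35A4 overlapped between the groups.

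cyp-35B3 had 17406 and 16321 counts in ketamine 1 and 2, and 0 counts in both control libraries. cyp-35B2 had 16091 and 17065 counts in ketamine 1 and 2, and likewise 0 in both controls. With ketamine these genes reached 538 ± 38.3 CPM for cyp-35B3 and 532 ± 83.9 CPM for cyp-35B2 (SD, n = 2). A floor of 3 counts in each control library corresponds to 0.0754 CPM on average. Against this floor the mean ketamine level was at least 7136-fold higher for cyp-35B3 and at least 7051-fold higher for cyp-35B2. By library, in ketamine 1 and 2, the bounds were 6777-fold and 7495-fold for cyp-35B3, and 6265-fold and 7837-fold for cyp-35B2. Without control 1 the remaining control was also at 0 for both genes. At this depth a count of 0 limits the control level and does not show that the genes were silent.

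Of all listed genes, 6 had 0 counts in both controls and at least 10 in both ketamine libraries, and 2 of them were cyp-35B2 and cyp-35B3. Another was their neighbour srz-89, described below. The other 3 were F38C2.1 with 83 and 103 counts in ketamine 1 and 2, grd-17 with 24 and 19, and 21ur-1774 with 10 and 10. In the opposite direction 1 gene, gtnt-17, had 0 counts in both ketamine libraries and 10 and 11 in the controls. These genes were named after their values were seen.

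cyp-35B1, the upstream neighbour of cyp-35B2, had 3127 and 3361 counts in the ketamine libraries, against 18 and 22 counts in the controls. Its level was 104 ± 17.4 CPM with ketamine and 0.510 ± 0.168 CPM in controls (SD, n = 2 each), a log2 fold change of 7.69 with a standard error of 0.35. Unlike cyp-35B2 and cyp-35B3 it was thus detected in both controls. Leaving out 1 library at a time gave log2 fold changes between 7.34 (without control 1) and 8.05 (without control 2).

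cyp-35A1 had 2269 and 2290 counts in the ketamine libraries, against 9 and 6 counts in the controls. It was at 73.0 ± 8.97 CPM with ketamine and 0.183 ± 0.0168 CPM in controls (SD, n = 2 each), a log2 fold change of 8.60 with a standard error of 0.29. Without control 1 the value was 8.67. With 9 and 6 control counts that standard error is below the 0.37 of counting error alone, and it was 0.48 in DESeq2, 0.41 with a replicate block and 0.61 without either ketamine library. On the log2(FPKM + 1) scale of limma, which understates changes from low levels, the difference was 5.53. The ketamine libraries of the 4 called genes differed from each other by 1.11-fold (cyp-35B3) to 1.27-fold (cyp-35B1).

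The cyp-35A1 partner gene, cyp-35A2, which codes for a protein of the same length 542 bases away on the same strand, did not differ beyond the spread of its libraries. Its counts were 2252 and 3008 with ketamine and 3294 and 2904 in controls, or 85.2 ± 26.9 CPM and 77.3 ± 8.15 CPM (SD, n = 2 each). The groups overlapped, and the log2 fold change was 0.14 with a standard error of 0.26. It was 0.01 without control 1, and it turned to -0.22 without ketamine 2. In controls cyp-35A2 had the highest level per length of the subfamily, and the adjacent cyp-35A1 had the lowest level of the 8 genes that were detected there.

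**Figure D2:**
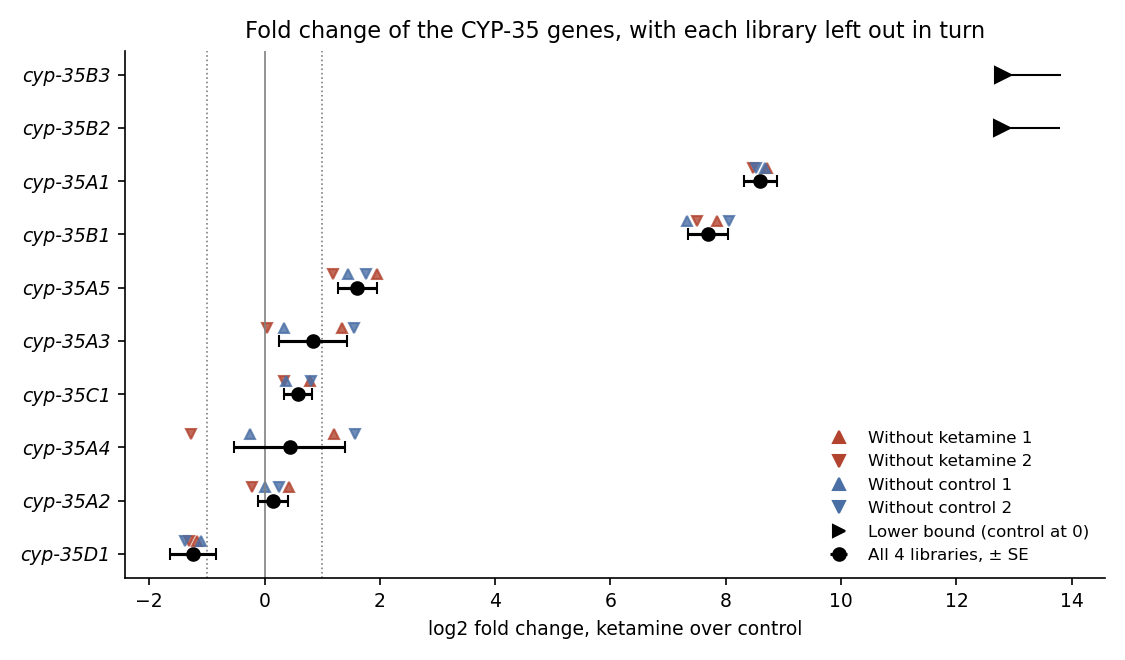
log2 fold change of each CYP-35 gene, ketamine over control (horizontal axis). Black circles with bars are the fit of all 4 libraries ± its standard error, coloured triangles are fits with 1 library left out, black arrowheads are lower bounds for the 2 genes with controls at 0, and dotted lines mark 2-fold. cyp-35A1 and cyp-35B1 lay between 7 and 9 in every fit, and cyp-35A4 and cyp-35A2 lay on both sides of 0.

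cyp-35A5, which opens the run of 4 genes and sits 630 bases before cyp-35B1, had 575 and 827 counts with ketamine, against 311 and 285 in controls. This was 22.8 ± 8.32 CPM with ketamine and 7.45 ± 0.988 CPM in controls (SD, n = 2 each), a log2 fold change of 1.61 with a standard error of 0.34. Both ketamine libraries lay above both controls, but edgeR did not call it. DESeq2 called it, and so did edgeR without control 2. Without control 1 its log2 fold change was 1.45.

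cyp-35C1 had 1754 and 2037 counts with ketamine, against 1615 and 1627 in controls. In CPM, which allows for the larger control libraries, it was at 61.0 ± 13.5 with ketamine and 40.8 ± 8.10 in controls (SD, n = 2 each). Both ketamine libraries lay above both controls, with a log2 fold change of 0.58 and a standard error of 0.25, and it was not called. Without control 1 the value was 0.36.

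cyp-35A3 and cyp-35A4, the CYP-35A genes that follow the run of 4, differed more between libraries of 1 group than between the groups. cyp-35A3 had 411 and 855 counts with ketamine and 326 and 568 in controls, a log2 fold change of 0.84 with a standard error of 0.59. The value was 0.33 without control 1, 0.05 without ketamine 2 and 1.56 without control 2, where edgeR called the gene. cyp-35A4 had 25 and 118 counts with ketamine and 37 and 97 in controls, a log2 fold change of 0.43 with a standard error of 0.97. Its sign changed when control 1 (-0.25) or ketamine 2 (-1.27) was left out, and without control 2 it was 1.57. For both genes the larger count fell in library 2 of each group. The 2 CPM values of a group were 2.45-fold (ketamine) and 2.29-fold (control) apart for cyp-35A3, and 5.57-fold (ketamine) and 3.45-fold (control) apart for cyp-35A4. With a replicate block the log2 fold change was 0.82 for cyp-35A3 and 0.25 for cyp-35A4, with standard errors of 0.31 and 0.43. Neither gene was called with it.

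cyp-35D1 was the 1 member with both ketamine libraries below both controls. Its counts were 15 and 14 with ketamine, against 56 and 34 in controls, or 0.463 ± 0.0314 CPM and 1.09 ± 0.172 CPM (SD, n = 2 each). The log2 fold change was -1.24 with a standard error of 0.40, and the gene was not called. It was -1.09 without control 1 and -1.39 without control 2. The related pseudogene cyp-35D2 (F14H3.13), which is not counted among the 10 genes, had 1 count in each ketamine library and 0 in each control.

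The order of the levels, compared between genes in the deposited FPKM values, was different in the 2 conditions. P450 genes are taken here as the 79 listed genes with a symbol starting cyp-, the pseudogene cyp-35D2 left out. With ketamine cyp-35B3 (355 FPKM) and cyp-35B2 (336 FPKM) were the highest of these 79 genes, and their libraries overlapped. Next within the subfamily came cyp-35B1 (60.6 FPKM), cyp-35A2 (52.2 FPKM) and cyp-35A1 (51.2 FPKM), with overlapping libraries. Among the 79 genes these ranked 8, 10 and 11. They were followed in the subfamily by cyp-35C1 (39.1 FPKM), whose libraries overlapped with those of cyp-35A2. cyp-35A5 (14.3 FPKM) and cyp-35A3 (13.1 FPKM) overlapped with each other, and cyp-35A4 (1.60 FPKM) and cyp-35D1 (0.301 FPKM) were lowest.

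In controls the order was led by cyp-35A2 (47.3 FPKM) and cyp-35C1 (26.1 FPKM), which did not overlap and ranked 4 and 6 among the P450 genes. cyp-35A3 (7.34 FPKM) and cyp-35A5 (4.66 FPKM) overlapped, as did cyp-35A4 (1.19 FPKM) and cyp-35D1 (0.712 FPKM). cyp-35B1 (0.297 FPKM) and cyp-35A1 (0.129 FPKM) were the lowest genes with any counts, and cyp-35B2 and cyp-35B3 were at 0. The 4 genes called higher were thus the 4 lowest of the subfamily in controls, and 3 of them were the 3 highest with ketamine.

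**Figure D3:**
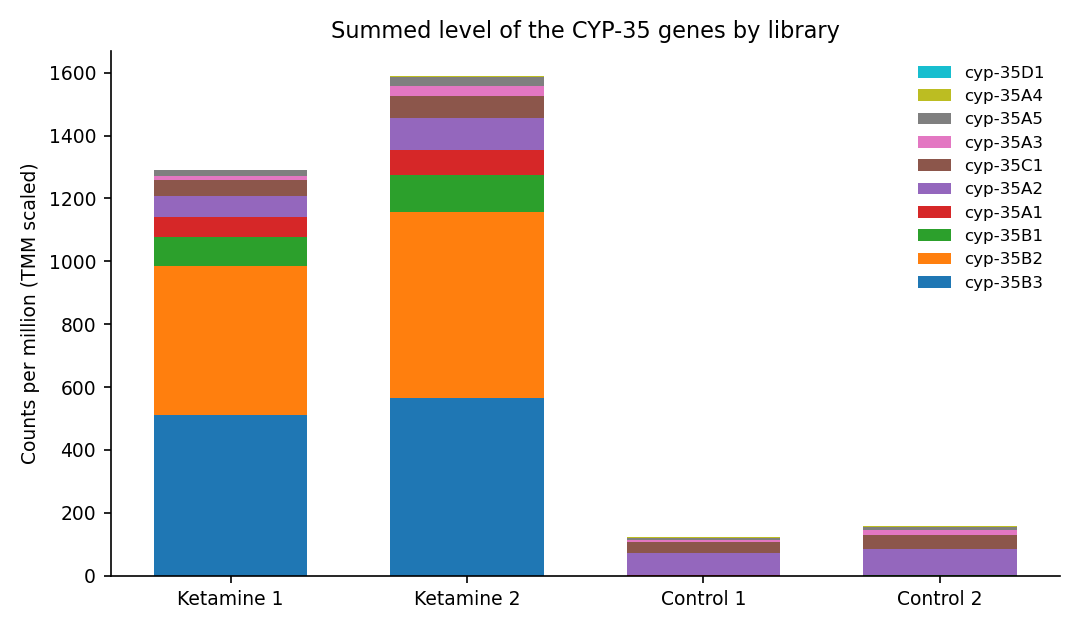
Summed level of the 10 CYP-35 genes in CPM (vertical axis) for the 2 ketamine libraries and the 2 control libraries, with each gene as a coloured segment. The sums were 1290 and 1590 CPM with ketamine and 123 and 158 CPM in controls, and the bottom segments, cyp-35B3 and cyp-35B2, were absent from the control bars.

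Summed over the subfamily, the 10 genes took 1290 and 1590 CPM in the ketamine libraries, against 123 and 158 CPM in the controls. The 4 genes called higher made up 88.5% and 85.1% of the subfamily's counts in ketamine 1 and 2, and 0.477% and 0.505% in control 1 and 2. The 6 other members summed to 148 and 238 CPM with ketamine and 122 and 158 CPM in controls, so that the groups overlapped. As a share of the counts on all 79 P450 genes, the CYP-35 genes took 54.3% ± 1.36 with ketamine and 16.1% ± 4.05 in controls (SD, n = 2 each). The 69 other P450 genes together were at 1210 ± 112 CPM with ketamine and 740 ± 90.6 CPM in controls.

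Of those 69 other P450 genes 58 were tested, and edgeR called 3 higher (cyp-14A3, cyp-34A10 and cyp-14A2) and 0 lower. Over all tested genes 0.095% were called higher and 0% lower. At an unadjusted p under 0.05 and at least 2-fold 18 of the 58 were higher and 1 lower, beside 323 and 258 of all 15793 tested genes. DESeq2 called 10 of the 58 higher and 0 lower, beside 0.69% and 0.146% of all tested genes. Their median log2 fold change was 0.18, beside -0.01 over all tested genes, with values from -1.12 for cyp-25A1 to 9.22 for cyp-14A3. cyp-14A3 had 3425 and 4974 counts with ketamine, against 7 and 11 in controls. cyp-34A10 had 3937 and 4162 counts with ketamine and 41 and 35 in controls.

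**Figure D4:**
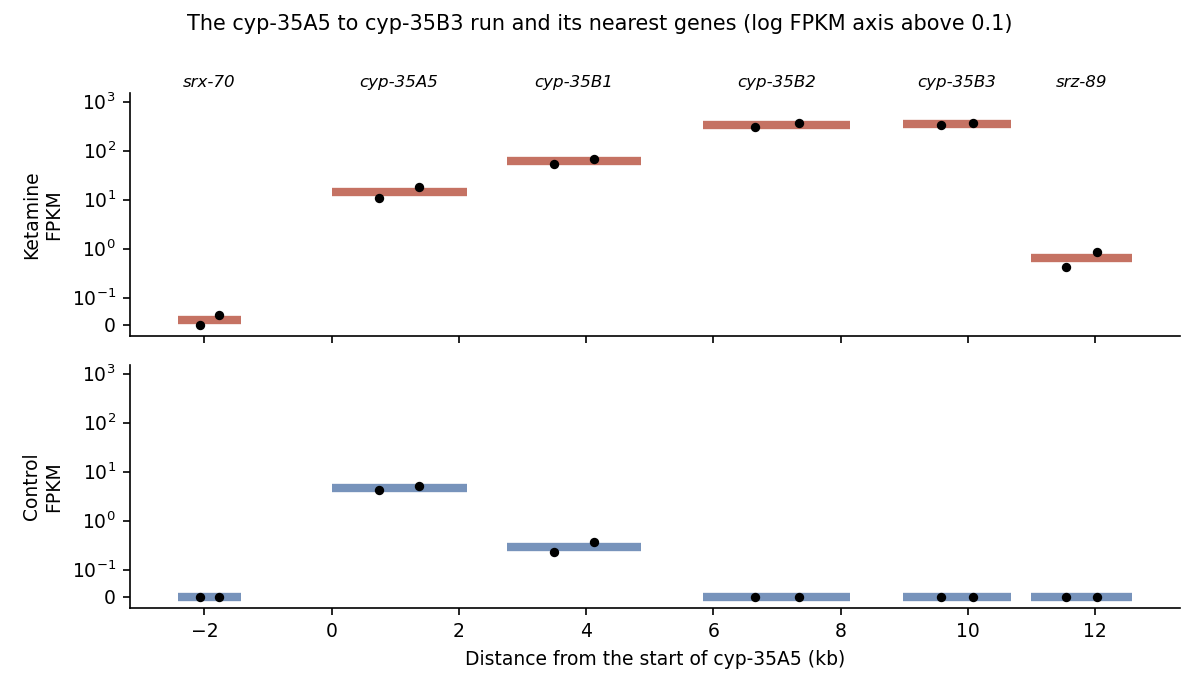
Level in FPKM (vertical axes, logarithmic above 0.1 and linear below) of the 4 genes of the cyp-35A5 to cyp-35B3 run and the nearest gene on each side, against distance from the start of cyp-35A5 in kb. Coloured bars span each gene at its group mean and points are libraries, with ketamine above and control below. In ketamine libraries the mean was 14.3 FPKM at cyp-35A5, 60.6 at cyp-35B1, 336 at cyp-35B2 and 355 at cyp-35B3, whereas in controls it was 4.66, 0.297, 0 and 0 FPKM in the same order.

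The genes next to the members were examined because several members are adjacent. Along the run the FPKM level in ketamine libraries was higher at each gene than at the gene before it up to cyp-35B2, with no overlap of libraries, and cyp-35B2 and cyp-35B3 overlapped. In controls the level was lower at cyp-35B1 than at cyp-35A5 and 0 at the following genes. Before the run, srx-70, a chemoreceptor pseudogene 1423 bases from cyp-35A5, had 1 count in ketamine 2 and 0 in the other 3 libraries. After it, srz-89 (K07C6.1, 3947365 to 3948952), also a chemoreceptor pseudogene, which starts 320 bases past cyp-35B3 on the same strand, had 14 and 24 counts in ketamine 1 and 2 and 0 in both controls. This was at least 8.24-fold higher against the floor of 3 counts per control library. edgeR did not call srz-89 (adjusted p = 0.627) and DESeq2 did. Its level with ketamine was 0.647 ± 0.309 FPKM (SD, n = 2), against 355 FPKM of cyp-35B3, and whether its reads began in cyp-35B3 was not tested. The noncoding genes K07C6.16 within cyp-35B1 and K07C6.17 within cyp-35B3, both on the opposite strand, had 0 counts in all 4 libraries.

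Other neighbours had smaller differences than the 4 called members. Of 50 other listed genes within 10 kb of a member 19 were tested. Of these edgeR called 0, where it called 0.095% of all tested genes higher and 0% lower. DESeq2 called 1, srz-89, where it called 0.69% of all tested genes higher and 0.146% lower. At an unadjusted p under 0.05 and 2-fold 4 of the 19 passed. Of all 15793 tested genes 323 were higher and 258 lower at that threshold. Past cyp-35A2, at 1038 bases, exc-13 had 282 and 214 counts with ketamine and 139 and 128 in controls, a log2 fold change of 1.23 with a standard error of 0.26 (adjusted p = 0.685, edgeR). C03G6.6, 1114 bases on the other side of cyp-35A1, had 1 count in ketamine 1 and 0 elsewhere. Between cyp-35A3 and cyp-35A4, K09D9.1 had 105 and 90 counts with ketamine and 175 and 73 in controls, a log2 fold change of 0.07 with a standard error of 0.38. Past cyp-35A4, C49G7.7 had 46 and 45 counts with ketamine and 32 and 26 in controls. Its log2 fold change was 1.01 with a standard error of 0.36, and both ketamine libraries lay above both controls in CPM. On the other side of cyp-35A3, K09D9.3 had 7 counts in control 1 and 0 elsewhere.

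Beside cyp-35C1, sptl-3, which codes for a subunit of serine palmitoyltransferase, lay 239 bases away and had a log2 fold change of -0.18 with a standard error of 0.15, and oac-3, 1024 bases away, had -1.10 with a standard error of 0.46. Both genes had both ketamine libraries below both controls, where cyp-35C1 had both above. Beside cyp-35D1, F14H3.9 was at 0 in all libraries. Next to it on its other side lies nhr-176, the nuclear hormone receptor that is known to switch on cyp-35D1 in response to thiabendazole. It had 227 and 177 counts with ketamine and 317 and 180 in controls, a log2 fold change of 0.09 with a standard error of 0.27 (adjusted p = 0.92, edgeR).

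Among 11 genes known to regulate or serve xenobiotic P450 genes, all tested, edgeR called 0, as did DESeq2. Of the 11, 0 passed an unadjusted p under 0.05 and 2-fold. Of all tested genes 0.095% were called higher and 0% lower by edgeR, and 0.69% and 0.146% by DESeq2. The unadjusted threshold was passed by 323 of all 15793 upward and 258 downward. With 11 genes a count of 0 is near these shares, and nothing is read from it. The 11 genes had a median log2 fold change of 0.05, from -0.63 for ahr-1, the aryl hydrocarbon receptor, to 0.35 for pqm-1, a zinc finger factor. The Mediator subunit mdt-15, which is known to be needed for induction of CYP-35 genes by foreign compounds, had a log2 fold change of 0.04 with a standard error of 0.15. The values were 0.05 for daf-16, 0.01 for nhr-8, a xenobiotic-resistance receptor, and 0.19 for skn-1, the stress factor related to Nrf, with standard errors of 0.16, 0.20 and 0.14. emb-8, the reductase, was at 106 FPKM with ketamine and 111 FPKM in controls. These are transcript levels only.

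The genes closest in shape to the subfamily were searched over the 4 libraries, with the log2 CPM of each gene centred on its own mean and closeness given as the root mean square difference from the median of the 10 members. The 5 closest were the nuclear receptor gene nhr-207 (0.0958), the antibacterial factor gene abf-2 (0.105), the ground-like gene grl-14 (0.151), the chemoreceptor gene srsx-18 (0.165) and the cuticlin gene cut-6 (0.176), all at 44 counts or fewer in each library. The median of the 10 members was a modest pattern (0.23 and 1.23 in ketamine 1 and 2, and -0.99 and -0.37 in control 1 and 2), since the members ranged from lower to far higher. Set against the median of the 4 called members alone, a choice made after the values were seen, the 5 closest were cror-1 (0.963), cyp-14A3 (0.985), H25K10.4 (1.35), cror-2 (1.62) and R09E12.9 (1.70). cror-1 (C01G12.5) had 1245 and 1211 counts with ketamine and 0 and 2 in controls.

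Since the CYP-35 genes are known as intestinal genes and the libraries are whole animals, lists of tissue and stage markers were measured beside them. The 8 intestine markers were detected in every library and summed to 1169 and 1121 CPM with ketamine and 921 and 1308 CPM in controls, with 0 called by edgeR or DESeq2, 0 at an unadjusted p under 0.05 and 2-fold and a median log2 fold change of 0.11. Their log2 fold changes ran from -0.35 for ifb-2 to 0.48 for elt-7. In whole animals fewer cells of a type and less RNA per cell cannot be told apart. The 6 yolk protein genes, also made in the intestine, summed to 65173 and 65060 CPM with ketamine and 42820 and 76883 CPM in controls. The 8 larval molt markers summed to 135 and 110 CPM with ketamine and 78.7 and 116 CPM in controls (median log2 fold change 0.70). The log2 fold changes of the yolk genes ran from -1.18 for vit-1 to 0.39 for vit-6. Those of the molt markers ran from -0.19 for nas-37 to 1.23 for mlt-11. Neither list had a gene called by edgeR (0 of 6 and 0 of 8). At an unadjusted p under 0.05 and 2-fold 2 yolk genes were lower and 1 molt marker was higher, and DESeq2 called 1 yolk gene lower. The 8 oocyte and eggshell markers had a median of 0.25 and the 7 tested sperm markers of -0.40. Of these, 0 were called by either tool and 0 passed the unadjusted threshold. Over all tested genes edgeR called 0.095% higher and 0% lower, and DESeq2 0.69% and 0.146%. At the unadjusted threshold 323 of all 15793 were higher and 258 lower. In lists this short a count of 0 is near these shares, and nothing is read from it. Oocyte and eggshell values ran from 0.14 for egg-1 to 0.76 for perm-2, and sperm values from -0.51 for ssp-16 to 0.25 for spe-11. Both ketamine libraries lay above both controls in 6 oocyte and eggshell, 0 sperm, 1 intestine, 0 yolk and 3 molt genes. They lay below both in 0, 4, 2, 3 and 1 in the same order (all tested genes 23.1% above and 20.6% below). perm-2 was at 52.3 CPM in control 1 and 978 CPM in control 2, and at 843 and 901 CPM with ketamine. The paper reports slower and uneven development of ketamine-treated animals. The part of stage or tissue makeup in the CYP-35 values was not tested.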

How the data were processed

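Total RNA of whole animals was made into stranded mRNA libraries. Per the paper's methods and the labels, the authors aligned paired-end reads to WBcel235 with HISAT2 2.0.5, assembled them with StringTie 1.3.3b and counted them with featureCounts 1.5.0-p3. They deposited raw counts of 46643 genes and FPKM values, found here to be counts over gene length and 1 constant per library. The WT columns were taken as the control samples of the same number, and 0 per-sample columns were left unused. Symbols came from the Ensembl annotation of WBcel235 and RefSeq (46183 rows matched a WormBase identifier).

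Counts were scaled with TMM and fitted with edgeR 4.0.16 (quasi-likelihood test, no replicate block, at least 10 counts in at least 2 libraries, p adjusted over 15793 genes). Standard errors were derived from the log2 fold change and its F statistic. DESeq2 1.42.0, limma 3.58.1 on log2(FPKM + 1), other scaling, no filter, unadjusted p, a replicate block and leaving out each library were alternatives (R 4.3.3). Nothing says that the 2 libraries of a group came from separate cultures, so the spread may be technical, and exact permutation of 2 against 2 cannot give a two-sided p below 0.333. Members and lists were chosen with earlier results of these data known. The named genes are the members, the nearest listed gene on each side, any other called gene within 10 kb, the 5 genes closest in profile, and the called and extreme genes of each list. Other names were chosen after their values were seen. A planned search of promoter motifs was not run and no sequences were analysed here.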

Additional observations from a re-analysis of the deposited data

How the results depend on the processing

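The count of members called higher was 4 as reported, 5 with DESeq2 and at an unadjusted p, where cyp-35A5 was added, and between 4 and 6 when 1 library was left out. It was 4 with the replicate block, other size factors, no count filter and limma. These counts describe genes chosen on this contrast, 3 of which passed the filter only through the ketamine libraries, and are no sign of stability. The count of members called lower, 0, became 1 (cyp-35D1) at an unadjusted p. Of 90 member values under the alternatives that refit the fold change, which leaves out the unadjusted p, 84 kept their direction and call, 3 gained a call and 3 turned in sign. Signs turned for cyp-35A2 without ketamine 2 (-0.22) and for cyp-35A4 without control 1 (-0.25) and without ketamine 2 (-1.27). Leaving out 1 library gave values from -0.22 to 0.43 for cyp-35A2 and from -1.27 to 1.57 for cyp-35A4. The cause was not tested.

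The number of genes called over the whole table varied more. It was 15 higher and 0 lower, against 109 and 23 with DESeq2, 67 and 6 without a count filter, and 323 and 258 at an unadjusted p. Leaving out 1 library gave 21 to 1725 higher and 0 to 678 lower, with the largest numbers without control 2 and 102 and 46 without control 1. In these fits a lone library of a group is assumed to vary like the other group. With the replicate block 34 genes were called higher and 0 lower. The labels give shared numbers but no shared batch, so the numbers were not taken as pairs. Across genes the deviations of the libraries numbered 1 correlated at 0.0814, a single value that cannot decide whether the numbers mark a shared batch.

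2 libraries per group limit the precision. Counts at or under 10, as of cyp-35A1 in controls, carry large counting error, and the 3 counts used for lower bounds are an assumed floor, not a detection limit.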
